A study of Drosophila melanogaster with 4 samples.

Results

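Trimethylation of histone H3 at lysine 27 (H3K27me3) was examined at the segmentation genes engrailed (en), invected (inv), even-skipped (eve), wingless (wg) and hedgehog (hh) of Drosophila melanogaster. The data were deposited lists of enriched regions, called clusters here, from chromatin immunoprecipitation followed by sequencing (ChIP-seq) of whole wild-type Oregon-R larvae in the third instar. Chromatin had been precipitated with a mouse monoclonal antibody to H3K27me3. There were 2 H3K27me3 ChIP libraries and 2 input libraries. Lists were analysed for both ChIP replicates, together with 1 combined list of the series, while the input libraries had no list here and enter no comparison. Clusters were members when they shared at least 1 bp with 1 of 4 windows on FlyBase release 5: 2R from 7330000 to 7450000 for en and inv, 2R from 5840000 to 5900000 for eve, 2L from 7250000 to 7400000 for wg, and 3R from 18900000 to 19000000 for hh. This gave 30 of the 9295 clusters of the series: 11 of 2510 in replicate 1, 7 of 1819 in replicate 2 and 12 of 4966 in the combined list. The labels do not say whether the replicates came from separate collections of larvae, and their spread may include technical differences. Read depth behind the lists is unknown.

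H3K27me3 is deposited by Polycomb Repressive Complex 2 and marks developmental genes that Polycomb group proteins keep silent. In flies these proteins are recruited through Polycomb response elements and the mark spreads from there over broad domains. The segmentation genes divide the embryo into repeated units, and en, inv, hh and wg go on to pattern the imaginal discs of the larva, where each is active in some cells and silent in others. Whole larvae mix such cells, so a cluster does not tell in which cells a gene carried the mark.

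Each of the 5 genes lay under 1 broad cluster in every list. Both homeodomain genes en and inv shared a cluster of 117.7 kb in the combined list. The wg cluster spanned 70.4 kb, the hh cluster 21.7 kb and the eve cluster 17.3 kb. Genes were placed on the clusters by subtracting a constant from the release 6 positions of the gene table, 4112495 bp on 2R, 4174278 bp on 3R and 0 bp on 2L, and this placement was not checked against sequence. The table gives no strand, so left and right are used here for lower and higher coordinates. By this placement 100% of the bodies of en, inv, eve and wg lay inside clusters in all 3 lists. For hh the share was 99.7% in replicate 1 and 100% in the other lists.

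**Figure D1:**
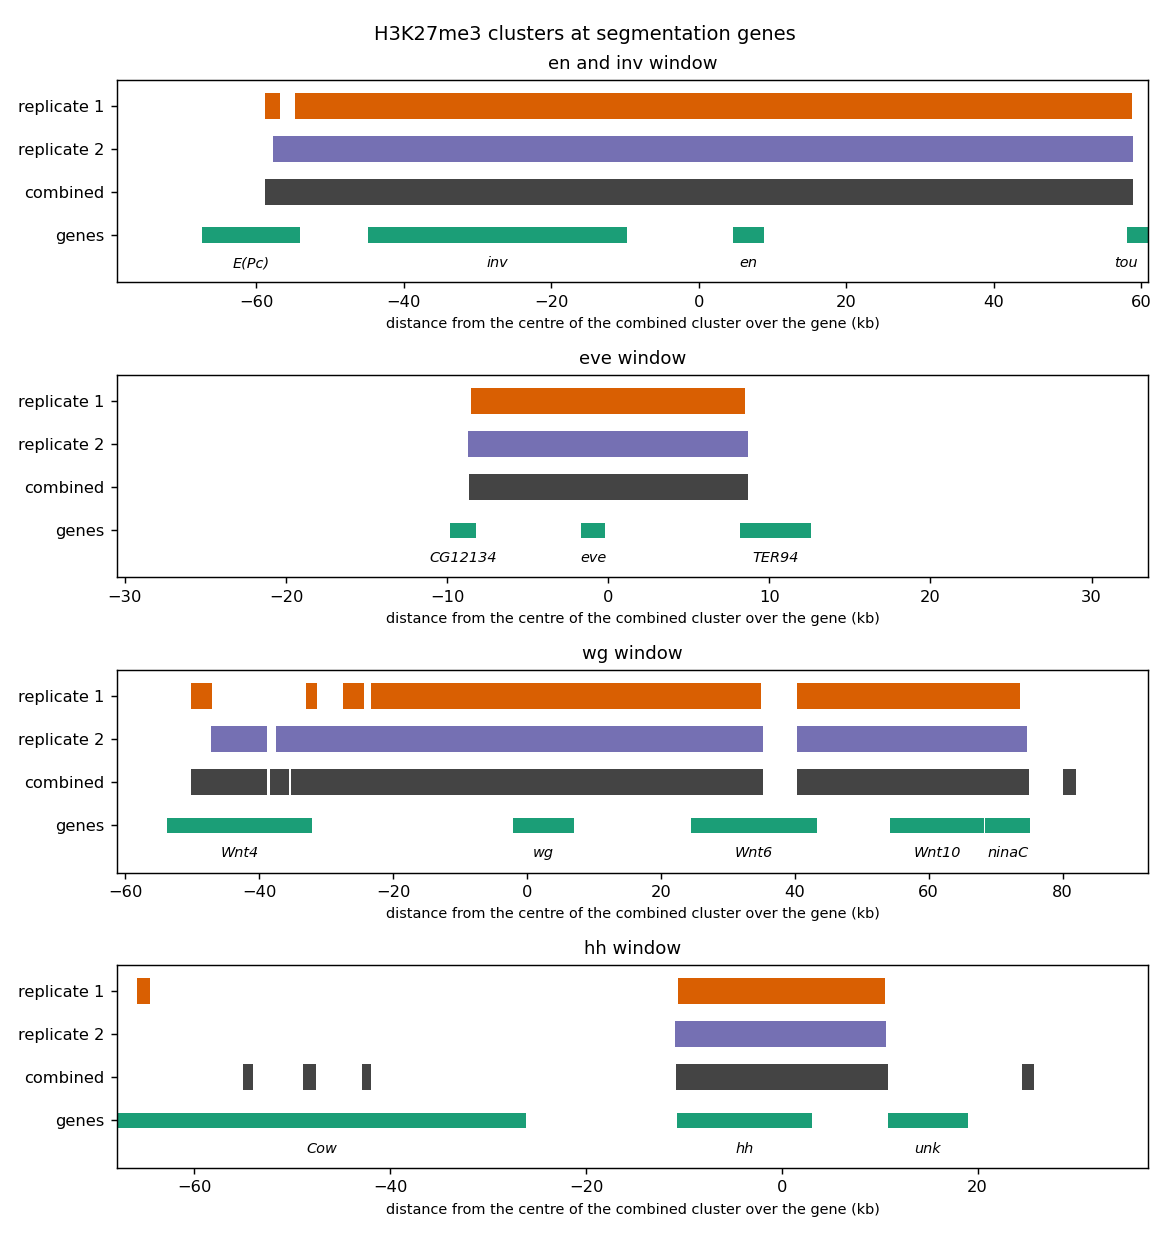
Clusters of each list (bars) in the 4 windows, with gene bodies below, against the distance in kb from the centre of the combined cluster over the named gene. The en and inv, eve and hh domains have like extents in replicate 1, replicate 2 and the combined list, while the left part of the wg window is broken up in replicate 1 and the gap inside Wnt6 is open in all 3 lists.

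The en and inv domain was the widest of the set. These adjacent genes encode related homeodomain transcription factors that specify posterior compartments. In the combined list the domain ran on 2R from 7348045 to 7465713. It was 1 cluster in replicate 2, from 7349168 to 7465824 (116.7 kb). Replicate 1 held a cluster of 113.5 kb from 7352055 to 7465587 and a narrow one of 2.0 kb from 7348041 to 7350044, with a gap of 2010 bp between them that replicate 2 filled completely. The right edge differed between the replicates by 237 bp and the left edge of the broad cluster by 2887 bp. Covered length was 116.1 ± 0.792 kb (SD, n = 2).

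The gene bodies took up a minor part of this domain. The body of inv measured 35.2 kb and that of en 4.2 kb, with 14.3 kb of marked sequence between them. Left of inv the combined cluster reached a further 13.9 kb, and right of en it reached 50.0 kb. The left edge lay in E(Pc), which encodes Enhancer of Polycomb, a subunit of the Tip60 acetyltransferase complex. E(Pc) had 20.6% of its body in clusters in replicate 1, 27.3% in replicate 2 and 35.8% in the combined list. The right edge lay in tou (toutatis), a chromatin regulator gene, of which the combined cluster covered 724 bp or 1.88% of the body. The broad cluster ended inside both flanking genes in all 3 lists, in E(Pc) at positions up to 4010 bp apart and in tou at positions up to 237 bp apart.

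The hh domain was compact. hh encodes the Hedgehog ligand, secreted by posterior compartment cells. The domain ran on 3R from 18953715 to 18975416 in the combined list (21.7 kb), from 18953930 to 18975102 in replicate 1 (21.2 kb) and from 18953680 to 18975204 in replicate 2 (21.5 kb). Replicate edges differed by 250 bp on the left and 102 bp on the right. The Jaccard index of the replicates over this cluster, the length covered in both over the length covered in either, was 98.4%. The hh body of 13.7 kb made up 63.3% of the combined cluster. On the left the combined cluster ended 0.176 kb beyond the body of hh, 11 bp short of the neighbouring gene CG31457. The replicate 2 cluster ended inside CG31457 and covered 1.71% of its body. On the right the combined cluster reached 7.8 kb beyond hh and overlapped 42 bp of unk (unkempt), a zinc-finger gene. The replicate clusters ended short of unk. The mark was thus one-sided around the hh body in all 3 lists: left of the body it reached 0.211 kb in replicate 2 and stopped 39 bp inside the body in replicate 1, against 7.6 and 7.5 kb on the right.

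Outside the hh domain the window held narrow clusters, none of which was found in both replicates. The combined list had 4 of them, 1001 to 1317 bp wide, of which 3 overlapped Cow (Carrier of Wingless), whose secreted product binds Wingless. No replicate cluster overlapped any of these 4. Replicate 1 had a cluster of 1405 bp in Cow that replicate 2 lacked. A combined cluster outside the window covered 88.5% of it. From the hh domain to the next cluster of 10 kb or more on the right was 41.9 kb in replicate 1, 41.4 kb in replicate 2 and 41.3 kb in the combined list.

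The wg window held a family of Wnt genes. wg encodes the Wingless ligand, and Wnt4, Wnt6 and Wnt10 encode related ligands. The combined list split the window into 5 clusters: 11.4 kb over Wnt4, 2.9 kb also in Wnt4, 70.4 kb over wg and parts of Wnt4 and Wnt6, 34.7 kb over a further part of Wnt6, Wnt10 and most of ninaC, and 1.9 kb over gudu and CG5160. Replicate 1 had 6 clusters and replicate 2 had 4. Covered length was 107.4 ± 11.4 kb (SD, n = 2), from 99.3 kb in replicate 1 and 115.4 kb in replicate 2. The spread between replicates was larger here than at the other windows, where the SD was at most 0.792 kb.

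The wg gene itself was inside the broad cluster in every list. That cluster ran on 2L from 7285983 to 7344126 in replicate 1 (58.1 kb), from 7273970 to 7344407 in replicate 2 (70.4 kb) and from 7274015 to 7344400 in the combined list. Its right edge differed by 281 bp between the replicates and its left edge by 12013 bp. Left of the wg body the mark was continuous for 21.2 kb in replicate 1 and 33.2 kb in replicate 2, and right of it for 27.9 and 28.1 kb. In replicate 1 the sequence left of the broad cluster held pieces of 3142 and 1620 bp, and the gaps of 1129 and 3843 bp beside them were completely filled in replicate 2.

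A gap interrupted Wnt6 in all 3 lists. It ran on 2L from 7344127 to 7349518 in replicate 1 (5392 bp), from 7344408 to 7349522 in replicate 2 (5115 bp) and from 7344401 to 7349481 in the combined list (5081 bp). Its right end differed by 4 bp between the replicates and its left end by 281 bp. The whole gap lay inside the body of Wnt6, which was 71.4% covered in replicate 1, 72.8% in replicate 2 and 73.0% in the combined list. Replicate 2 filled 5.21% of the replicate 1 gap, and replicate 1 filled 0.0782% of the replicate 2 gap. Whether reads can be placed on this stretch was not measured.

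The domain on the right of that gap was close in both replicates, and the mark over Wnt4 was not. The right-hand cluster, over Wnt10, was 33.3 kb in replicate 1, 34.4 kb in replicate 2 and 34.7 kb in the combined list, with left edges 4 bp and right edges 1062 bp apart between the replicates. The Wnt10 body was 100% covered in each list. ninaC, the gene for a photoreceptor myosin, was 76.9% covered in replicate 1 and 92.9% in replicate 2, and CG5149 beyond it was not covered in any list. Wnt4 was 18.5% covered in replicate 1, 63.7% in replicate 2 and 80.1% in the combined list. The combined cluster of 11.4 kb over Wnt4 was 27.2% covered in replicate 1, by pieces of 1308 and 1785 bp, and 73.7% in replicate 2, by a single cluster of 8.4 kb. Within it the replicates shared little sequence, with a Jaccard index of 1.29%.

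**Figure D2:**
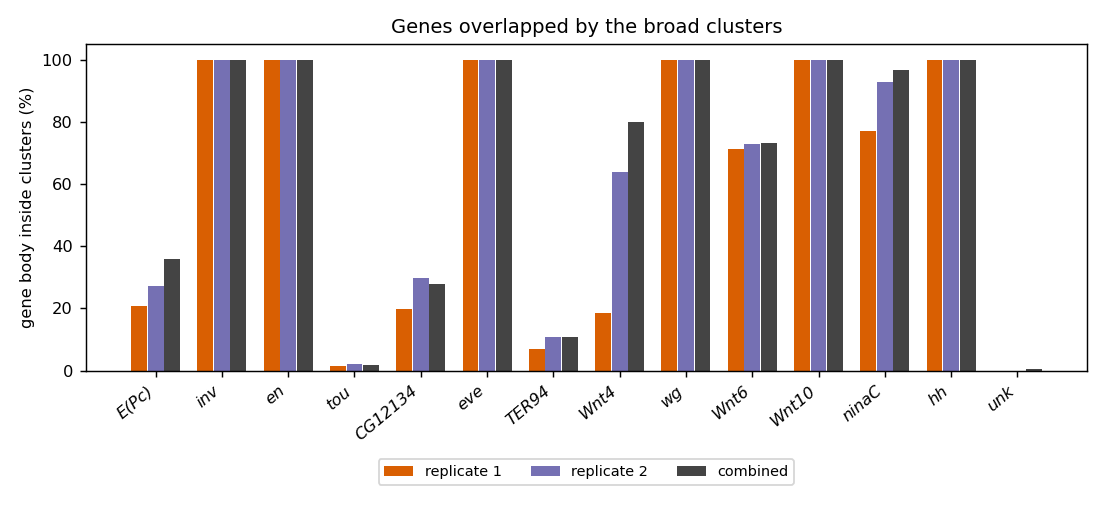
Share of each gene body (percent) inside clusters of replicate 1, replicate 2 and the combined list, for the protein-coding genes that the broad combined clusters overlap. The bars of en, inv, eve, wg, Wnt10 and hh reach 99.7% to 100% in every list, Wnt6 sits at 71.4% to 73.0%, and Wnt4 ranges between 18.5% and 80.1%.

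The eve domain was the narrowest of those over the 5 genes and had the highest score. eve encodes a homeodomain repressor of the pair-rule class. The domain ran on 2R from 5859963 to 5876972 in replicate 1 (17.0 kb), from 5859796 to 5877142 in replicate 2 (17.3 kb) and from 5859828 to 5877141 in the combined list. Edges differed between the replicates by 167 bp on the left and 170 bp on the right. The eve body of 1.5 kb took up 8.53% of the combined cluster, with 7.0 kb of mark on the left and 8.8 kb on the right, so the gene sat near the middle. The left edge lay in CG12134 and covered 458 bp of it. The right edge lay in TER94, which encodes an ATPase of the VCP class, and covered 478 bp or 10.9% of its body. No other cluster lay in the eve window in any list.

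The files do not state the scale of the score deposited with each cluster. Scores were therefore read as ranks inside a list. The order of the scores among the segmentation genes did not follow their widths. The eve cluster had a score of 2.47 in replicate 1, 3.02 in replicate 2 and 2.78 in the combined list. Among clusters of 10 kb or more it ranked 2 of 214 in replicate 1, 6 of 253 in replicate 2 and 1 of 294 in the combined list. The en and inv cluster, with a score of 1.74, 2.61 and 2.24 in those lists, ranked 46, 30 and 34 among the same clusters. By width it ranked 7 of all clusters in replicate 1, 16 in replicate 2 and 15 in the combined list.

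The wg and hh clusters had scores closer to the middle of broad clusters. wg scored 1.48 in replicate 1, 2.18 in replicate 2 and 1.83 in the combined list, against medians of 1.36, 1.62 and 1.23 over all clusters of 10 kb or more. hh scored 1.51, 1.96 and 1.75 in the same lists. Their order was not kept: hh ranked 81 and wg 88 in replicate 1, while wg ranked 78 and hh 91 in replicate 2. In the combined list wg ranked 75 and hh 81 of 294. The Wnt6-Wnt10 cluster scored 1.25 in replicate 1, below the median, and ranked 132 of 214. It ranked 88 of 253 in replicate 2 and 91 of 294 in the combined list. The Wnt4 cluster of the combined list ranked 288 of 294.

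**Figure D3:**
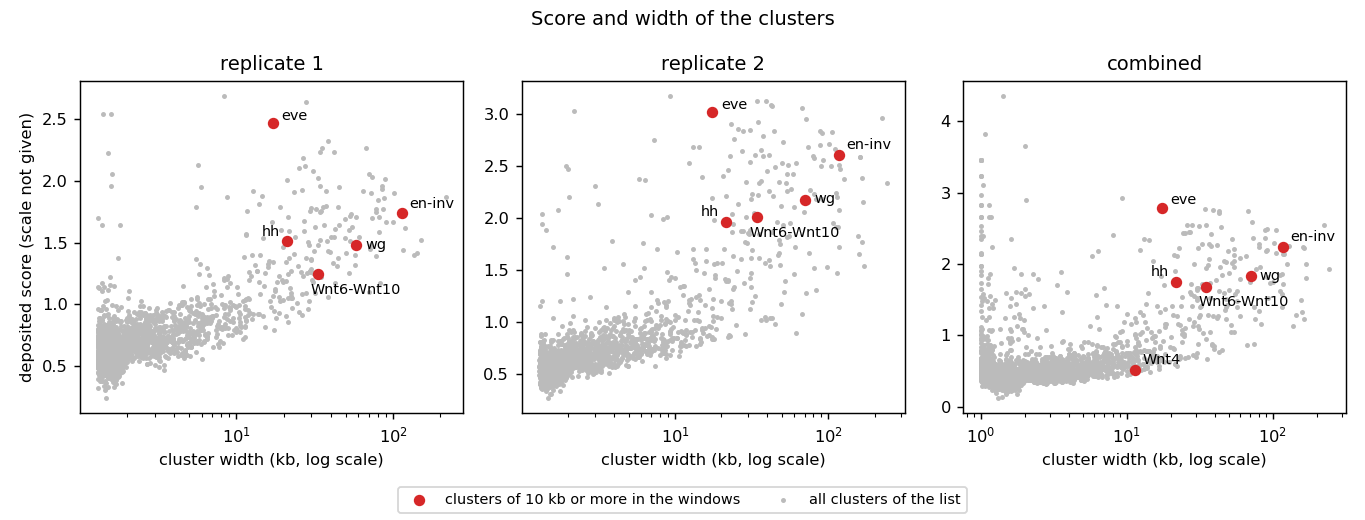
Deposited score against cluster width in kb (log scale) for replicate 1, replicate 2 and the combined list, with the broad clusters of the windows in red and all clusters in grey. The eve cluster, at 17.0 to 17.3 kb, has the highest score of the red points in each panel, and the Wnt4 cluster of the combined list has the lowest.

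Replicate agreement differed among the windows. Over member clusters the Jaccard index was 97.1% for en and inv, 98.1% for eve, 92.3% for hh and 81.4% for wg. Over the 4 windows together it was 90.045%, with 248.9 kb in both lists, against 65.045% for the rest of the series. These values are not matched for cluster width. No test of this difference was made. Of the 12 combined members, 6 overlapped both replicate lists (17.0% of all combined clusters did), 1 overlapped replicate 2 alone and 5 overlapped neither. The 6 were those of 10 kb or more, a width at which 99.3% of combined clusters overlapped both. None of the 5 members under 2 kb overlapped a replicate cluster, against 27.4% of all combined clusters under 2 kb. Among replicate 1 members under 5 kb, 4 of 6 overlapped replicate 2, against 56.0% of all such clusters.

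The broad members differed among themselves in how closely replicates followed the combined list. Of the 6, 4 were at least 90% covered in both replicates (39.1% of all combined clusters of 10 kb or more), and wg and Wnt4 were not. The eve, hh and Wnt6-Wnt10 clusters were 1 cluster in both replicate lists, 3 of 6 against 22.8% of all. Both edges lay within 500 bp of the combined edges in both replicates for eve and hh, 2 of 6 against 10.9%. The median share of the combined cluster found was 96.8% in replicate 1 and 99.1% in replicate 2 for the 6 members, against 84.5% and 99.3% for the other 288 broad combined clusters. With 6 clusters, 3 of them from 1 window, these shares describe the set only.

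**Figure D4:**
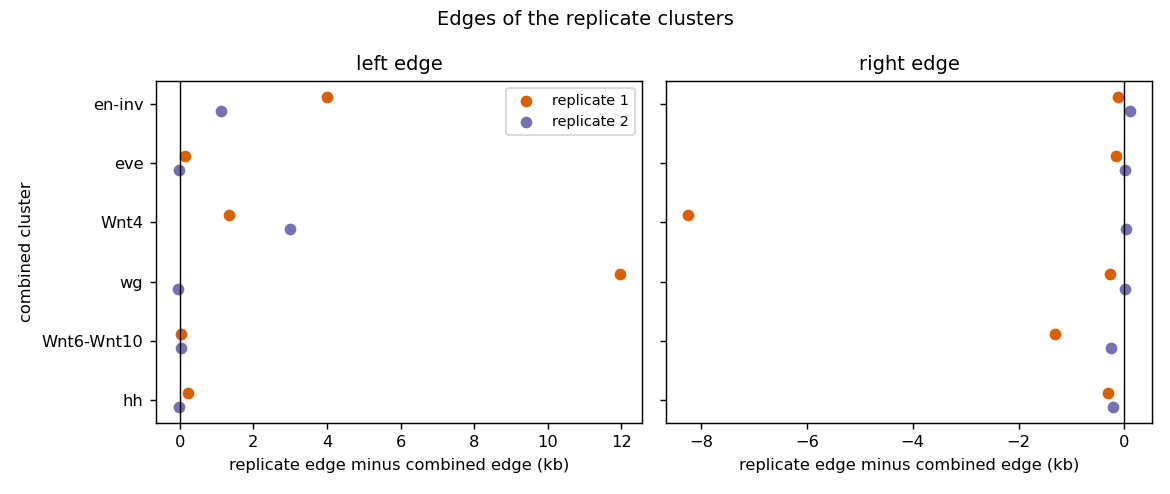
Position of the left and right edges of the best-overlapping replicate cluster relative to the edge of the combined cluster, in kb, for replicate 1 and replicate 2. Most points lie near 0, and the largest distances are the replicate 1 left edge at wg (11968 bp inside) and the replicate 1 right edge at Wnt4.

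A feature the windows did not select was where the edges fell. Of the 12 edges of the broad combined members, 11 lay inside a protein-coding gene body, the exception being the left edge at hh, against 55.1% of edges of all broad combined clusters on 2L, 2R and 3R. Of these 11, 5 edges were inside Wnt4 or Wnt6 and so cut through genes of the same window. The right edge at hh was inside unk by 42 bp in the combined list and outside it in both replicate lists. The left edge at wg was in no protein-coding gene in replicate 1. The left edge at hh lay inside hh in replicate 1 and inside CG31457 in replicate 2. The count of 11 was made on the combined list, and which edges lay inside genes differed in each replicate list. Within 1000 bp of an end of a protein-coding gene lay 7 of 12 edges, against 51.1%, a share near the background. Gene bodies filled 38.2% of the en and inv cluster, 13.9% of the eve cluster, 32.6% of the wg cluster, 63.5% of the hh cluster, 100% of the Wnt4 cluster and 68.2% of the Wnt6-Wnt10 cluster, against 46.4% over all broad combined clusters on these arms.

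The other segmentation genes and the genes of the Hedgehog and Wingless pathways were placed in the same way on 2L, 2R and 3R. A gene was counted as marked when at least 50% of its body lay in clusters. The 6 lists hold 56 genes, of which 34 were placed. Of these 34, 27 were marked in the combined list, against 11.0% of all 8871 protein-coding genes placed. In both replicate lists 24 were marked, against 4.88%. The 27 genes lay in 22 combined clusters, so they are not independent. The gene lists were chosen with earlier results of these data known, so these shares describe the lists only. Leaving out the genes in the 4 windows, 19 of 26 were marked in the combined list and 17 in both replicates.

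All 7 pair-rule genes placed, eve included, were marked in both replicates. So were all 5 gap genes placed and all 8 segment polarity transcription factors placed, with en and inv among them. Each of these 8 shared its cluster with another gene of that list. The slp1 and slp2 genes are in both the pair-rule and the segment polarity lists, so these counts overlap. The full lists hold 9 pair-rule genes, 10 gap genes and 9 segment polarity transcription factors. Examples are prd (paired), under a cluster of 18.0 kb in the combined list, the slp1 and slp2 pair under 49.7 kb, hb (hunchback) under 28.8 kb and the gsb and gsb-n pair under 37.6 kb. Of the 6 Wnt ligand genes placed, 6 were marked in the combined list and 3 in both replicates, namely wg, Wnt6 and Wnt10. All 3 lie in the wg window, while Wnt2 and wntD lie outside the windows. Wnt2 was 40.5% covered in replicate 1 and 60.2% in replicate 2. wntD was 63.9% covered in replicate 1 and 0% in replicate 2.

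In the Hedgehog pathway the ligand and its receptor gene were marked and the other genes placed were not. Of 7 genes placed, from a list of 11, hh and ptc (patched) were marked in both replicates. The ptc gene, which encodes the Hedgehog receptor, had 89.7% of its body covered in replicate 1 and 87.2% in replicate 2. No cluster of any list overlapped smo, disp, ihog, Su(fu) or cos. These encode the signal transducer Smoothened, the ligand-release protein Dispatched, a co-receptor, and the intracellular regulators Suppressor of fused and Costal-2. Of 4 Wingless pathway genes placed, from a list of 14, wg and Axn were marked in both replicates. Axn, the gene for the scaffold protein Axin, was 51.2% covered in replicate 1 and 53.0% in replicate 2, just past the 50% limit. The co-receptor gene arr had 10.8% and 13.1% covered, and Apc had 0% in each list.

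**Figure D5:**
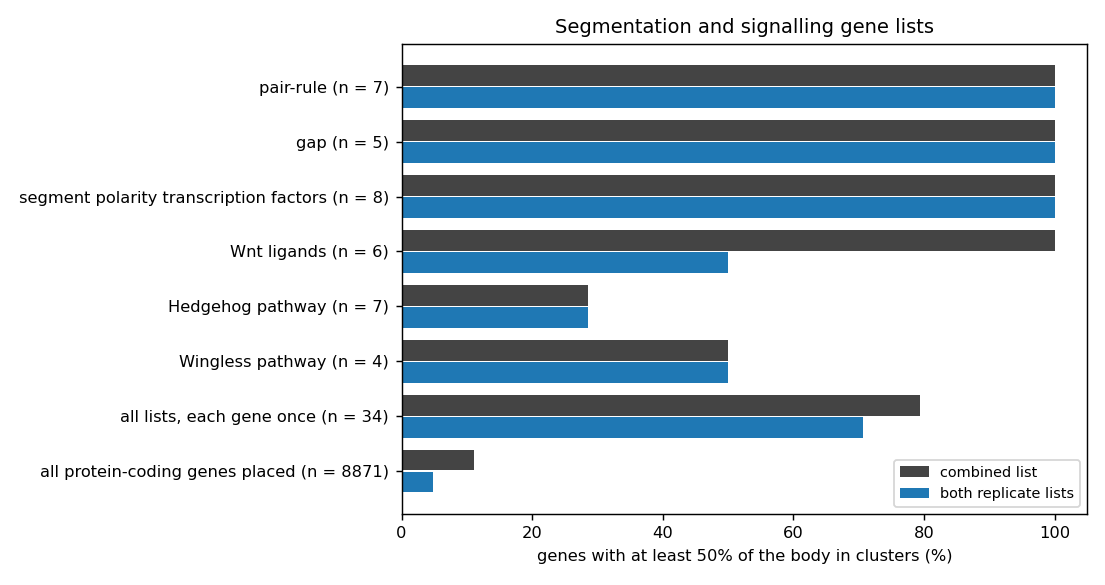
Share of genes (percent) with at least 50% of the body in clusters of the combined list and of both replicate lists, for 6 gene lists, all lists together and all protein-coding genes placed, with the number of genes placed. The pair-rule, gap and segment polarity transcription factor lists reach 100%, the Hedgehog pathway list 28.6%, and all genes 11.0% and 4.88%. Genes in the chosen windows are included in the lists.

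Cluster width across the 3 lists was used to find the genes most like each member, among 17 list genes outside the windows that were marked in every list. Likeness was the mean absolute difference in log2 cluster width over the 3 lists. For en and inv the nearest was ems (empty spiracles, a gap-class gene of the head) at 0.04, under a cluster of 119.0 kb in replicate 1 and 119.3 kb in the other lists. The next was odd (odd-skipped, a pair-rule gene) at 0.35. For eve the nearest was prd at 0.04 and then hkb (huckebein, a terminal gap gene) at 0.53. For wg they were opa (odd-paired) at 0.11 and slp1 at 0.41, and for hh they were prd at 0.28 and hb at 0.34. The slp2 gene had the same cluster widths as slp1 in every list, so slp2 tied with slp1. The opa cluster was 66.8 kb in replicate 1 and 67.4 kb in replicate 2, so it varied less between replicates than the wg cluster.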

How the data were processed

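ChIP-seq clusters from 2 H3K27me3 ChIP replicates of whole Oregon-R larvae and from a combined list were used as deposited. Coordinates are on FlyBase release 5, per the file headers. Bowtie 0.12.7 is named in the submitters' processing notes. How clusters were called, with which threshold and whether against input, and how the lists were combined is not given in the labels or file headers used here. The deposited score has no stated unit, and the authors' read counts were not analysed, so depth and precision per cluster are unknown; scores were ranked inside a list only. Cluster starts and ends were used as the authors deposited them.

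The members and gene lists were chosen with earlier results of these data known. Genes came from a RefSeq table of the release 6 assembly; after subtraction of the arm constants, 8871 protein-coding genes fell inside the release 5 arms 2L, 2R and 3R (5 fell past the end of 2L, 19 before the start of 2R and 11 before the start of 3R). The constants are known for the windows and were assumed to hold along each arm. Genes on other arms were not placed, and the pair-rule gene h was not found in the gene table. The table has no strand, so a planned measure at the gene start was replaced by the share of the gene body covered. Genes were named by a fixed rule: the 5 members, genes overlapped by the broad member clusters with their nearest neighbours, the 2 most like list genes per member, and examples from each list. Cow, gudu and CG5160, overlapped by narrow members, fall outside this rule and were named after their values were seen. Lists were compared by base pairs (Jaccard index), and interval arithmetic was checked on simulated data. With 1 condition, no test between groups was possible. Alternatives were a score filter, a width minimum, merging, cutting at window borders, wider windows and single replicates. Python 3.11.15, numpy 2.4.6, pandas 2.3.3, scipy 1.17.1 and matplotlib 3.10.9 were used.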

Additional observations from a re-analysis of the deposited data

How the results depend on the processing

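The broad clusters over the 5 genes passed both the score and the width filter in each replicate list. At en and inv, covered length was 115.1 kb with clusters at or above the median score and also with clusters of 5 kb or more, 117.1 kb with clusters closer than 5 kb merged and 100.4 kb with clusters cut at the window borders. The Jaccard index there was 97.3% under both filters, 98.8% merged and 96.9% cut. At wg it was 83.5% with the score filter, 80.8% with the width minimum and 84.6% merged. At hh it was 98.4% with the width minimum and 98.0% cut, since both drop or shorten the narrow replicate 1 cluster. Windows widened by 20 kb took in clusters of neighbouring regions, which gave 26.3 kb and 80.9% at eve and 45.9 kb and 94.5% at hh. Single replicates gave 115.5 to 116.7 kb at en and inv, 17.0 to 17.3 kb at eve, 99.3 to 115.4 kb at wg and 21.5 to 22.6 kb at hh, within 1 SD of the mean by construction. Counts of marked list genes ranged from 23 to 28 in the combined list and from 20 to 27 in both replicates. With at least 90% of the body, 23 and 20 list genes were marked, against 7.32% and 3.596% of all genes placed. With any overlap, 28 and 27 were marked, against 19.5% and 7.53%. The count with at least 90% of the body was chosen after seeing the data, as was the edge distance of 1000 bp, which left 2 clusters with matching edges. The measure at gene starts could not be made without strand. No paired analysis was possible because only ChIP replicates had lists and they form 1 group. The part of read depth in the differences between the lists was not tested, as depth is unknown.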

Other observations

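The domains stood at different distances from other broad clusters. The eve cluster and the en and inv cluster are the next broad clusters to each other on that side of 2R, with 1470.9 kb between them in the combined list, 1475.1 kb in replicate 1 and 1472.0 kb in replicate 2. On the other side, eve had a cluster of 11.7 kb at 30.2 kb in the combined list and one of 11.8 kb at 30.0 kb in replicate 2, while in replicate 1 the nearest cluster of 10 kb or more lay 767.4 kb away and a piece of 2.1 kb lay at 33.6 kb. The nearest broad cluster left of hh was 225.1 kb away in the combined list and 225.5 kb away in replicate 2, against 1558.3 kb in replicate 1.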
